A study of Mus musculus with 2 samples.

Results

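The genes described here encode the glutamate receptors and the gamma subunits related to their auxiliary proteins. They were chosen by symbol alone: Gria, Grik, Grm, Grid or Cacng followed by digits only, or Grin1, Grin2a to Grin2d, Grin3a and Grin3b. The rule found 34 of the 32285 genes in the files. They fall into 4 AMPA receptor subunits (Gria), 5 kainate receptor subunits (Grik), 7 NMDA receptor subunits (Grin), 2 delta receptors (Grid), 8 metabotropic receptors (Grm) and 8 gamma subunits (Cacng). Of the gamma subunits, Cacng2, Cacng3, Cacng4, Cacng5, Cacng7 and Cacng8 are the transmembrane AMPA receptor regulatory proteins (TARPs). Cacng1 and Cacng6 match the rule but are counted among the calcium channel gamma subunits and not among the TARPs.

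Single nuclei were sequenced from snap-frozen subventricular zone of mice at postnatal day 7, a germinal layer along the lateral ventricle. The control library came from healthy mice. The other library came from mice that had been assigned to modeled intestinal perforation (MIP) on postnatal day 5, with tissue taken 48 hours later. There is 1 library per group, so no difference between the groups has a replicate check and no test was made. Neither the strain nor the number of animals behind each library is given in the labels. The libraries also differed in sex: Xist, made from the inactive X chromosome, had 200418 control UMIs against 118 in MIP, and 4 Y-linked genes had 36 against 39461. Sex, library and MIP therefore cannot be told apart, which bears most directly on Gria3, the X-linked member. A UMI marks 1 captured RNA molecule, and levels are in CPM, the UMIs of a gene per 1000000 UMIs of the same group of nuclei. Every interval below is an exact 95% interval that covers counting error only.

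Glutamate opens AMPA, kainate and NMDA receptors, which are ion channels built of 4 subunits, and it activates the metabotropic receptors, which signal through G proteins. AMPA receptors carry most fast excitation, and the subunit encoded by Gria2 sets whether they pass calcium. NMDA receptors need Grin1 plus Grin2 or Grin3 subunits, and in forebrain neurons Grin2b comes first in development while Grin2a is added as synapses mature. TARPs carry AMPA receptors to the surface and slow their closing. In the postnatal subventricular zone, migrating neuroblasts and glial precursors carry glutamate receptors before they have mature synapses, and astrocytes carry Grm3 and Grm5.

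The AMPA subunits are shown first because the mix of their UMIs differed between the libraries in most kinds of nuclei. A codon in the pore-lining segment distinguishes Gria2 in the protein: the genome spells glutamine there in all 4 genes, and in Gria2 RNA it is changed to arginine by adenosine deamination. The 4 coding stretches below are printed 5′ to 3′ in the direction of translation, from GENCODE release M21 transcripts, with that codon in capitals. The codon lies at chr11:57243094-57243096 (plus strand) in exon 11 of 16 of Gria1 and at chr3:80706911-80706913 (minus strand) in exon 11 of 16 of Gria2. In Gria3 it lies at chrX:41610265-41610267 (plus strand) in exon 11 of 16, and in Gria4 at chr9:4464137-4464139 (minus strand) in exon 12 of 17, all in build mm10.
Gria1: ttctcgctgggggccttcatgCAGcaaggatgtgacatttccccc
Gria2: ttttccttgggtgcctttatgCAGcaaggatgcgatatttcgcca
Gria3: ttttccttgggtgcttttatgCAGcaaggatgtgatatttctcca
Gria4: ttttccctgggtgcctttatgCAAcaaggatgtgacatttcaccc
Over these 45 bases Gria3 has 42 bases in common with Gria2, Gria4 has 39 and Gria1 has 36. Gria4 spells the same glutamine with another codon. Counts per gene do not show the edited base, so editing was not measured. Adarb1, whose enzyme edits this site, had 19.9 and 20.2 CPM in astroglia-like nuclei of the control and MIP libraries. In neuroblast-like nuclei it had 44.9 and 32.4 CPM (log2 ratio of MIP to control -0.47, interval -0.90 to -0.07). In Drd2 spiny-like (82.2 and 90.3 CPM) and excitatory neuron-like nuclei (102 and 112 CPM) it was higher in MIP, with intervals above 0.

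After filtering, 14579 control and 10940 MIP nuclei were kept, with medians of 5635 and 6029.5 UMIs. Within every class compared the control nuclei had the higher median depth, for example 3589.5 against 2439 UMIs in neuroblast-like nuclei, and the part of depth in the ratios was examined only by thinning. The libraries shared 115 barcodes. Nuclei were clustered without the 34 genes and named from marker genes, so that a name means resemblance. The named classes that held 100 or more nuclei from both libraries numbered 10: spiny projection neurons, the main striatal neurons, split into Drd1 and Drd2 types, excitatory neurons, interneurons, neuroblasts, cycling progenitors, astroglia, oligodendrocyte precursors, differentiating oligodendrocytes and microglia. A further 3 clusters of that size are called by their leading genes: a Prlr-led cluster, a B020031H02Rik-led cluster with Tshz1 and Foxp2 among its top genes, and a Drd3-led cluster. Nuclei of clusters with very low depth, 3521 control and 722 MIP, were not compared. Within these classes the nuclei were also split into finer clusters, and many of those held nuclei almost wholly of 1 library. Over all nuclei, 33 of the 34 genes had at least 50 UMIs. The exception was Grm6, the receptor of retinal ON bipolar cells, with 2 UMIs in each library.

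Among the AMPA subunits, Gria1 and Gria4 were highest in interneuron-like nuclei, Gria2 in the Drd3-led cluster and Gria3 in excitatory neuron-like nuclei, in both libraries. In interneuron-like nuclei Gria1 stood at 2565 CPM in the control and 2376 in MIP, and Gria4 at 2051 and 2291. In the Drd3-led cluster Gria2 stood at 2842 and 3451, and in excitatory neuron-like nuclei Gria3 stood at 485 and 530. In astroglia-like nuclei Gria2 made up 74.5% of AMPA subunit UMIs in the control and 81.9% in MIP. Differentiating oligodendrocyte-like nuclei held Gria4 at 990 and 1301 CPM, above every class in the control except interneuron-like nuclei and the Prlr-led cluster.

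The AMPA mix was tilted from Gria1 towards Gria2 in the MIP library. The share of Gria1 among the UMIs of Gria1 to Gria4 was lower in MIP in 12 of 13 classes, and in 10 of them the intervals of the libraries did not overlap. In Drd1 spiny-like nuclei the share was 34.7% in the control (interval 34.4 to 35.0) and 29.9% in MIP (29.6 to 30.2). In Drd2 spiny-like nuclei it was 39.6% and 33.8%, and in excitatory neuron-like nuclei 31.3% and 23.5%. Interneuron-like nuclei stood at 42.6% and 37.4%, and astroglia-like nuclei at 14.4% and 9.34%. The gap was widest in neuroblast-like nuclei, at 25.6% (24.9 to 26.4) and 14.5% (13.6 to 15.6). The exception was oligodendrocyte precursor-like nuclei, at 7.03% and 7.17%, and in microglia-like nuclei, with 417 and 404 AMPA UMIs in all, the shares of 24.0% and 23.8% could not be told apart at this depth. A share does not depend on how the libraries are scaled, but it also carries gene length, so it is compared only between libraries.

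**Figure D1:**
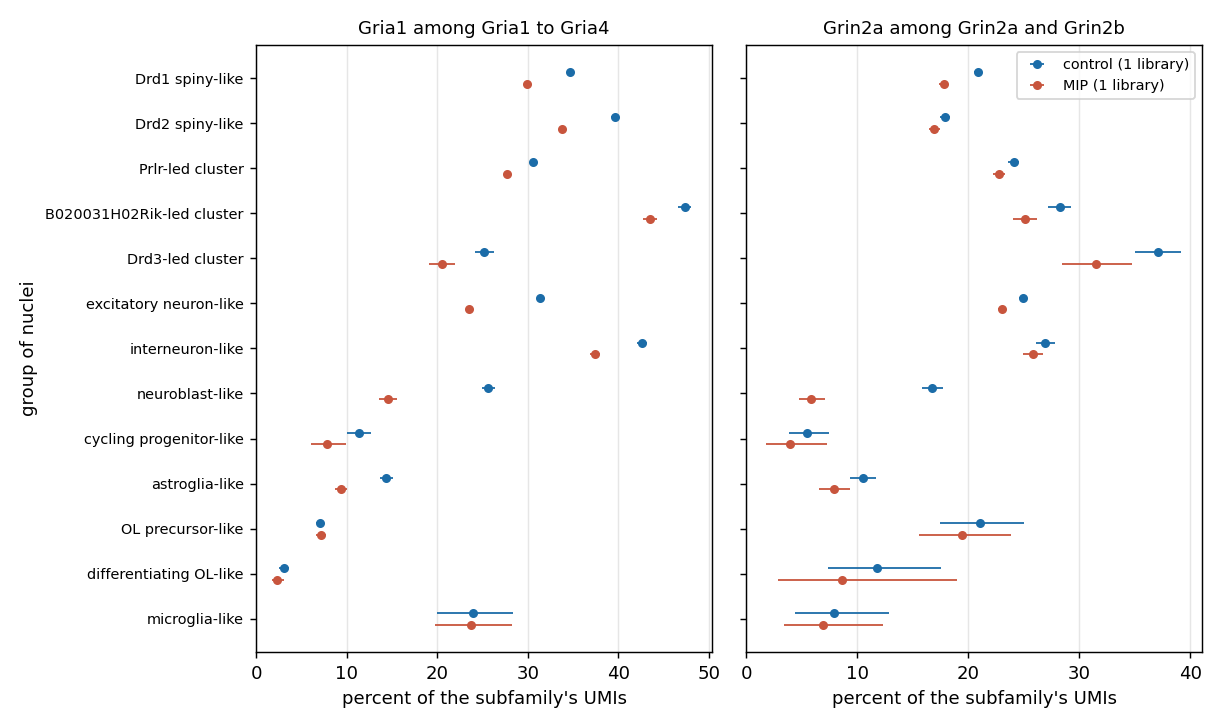
Each point is the percent of a subfamily's UMIs that came from Gria1 (left, of Gria1 to Gria4) or Grin2a (right, of Grin2a and Grin2b) in a group of nuclei, in blue for the control and red for the MIP library, with exact 95% binomial intervals for counting error. Red points lie left of blue ones for Gria1 in 12 of 13 groups and for Grin2a in 13 of 13, with the widest gaps in neuroblast-like nuclei.

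Single clusters showed the same tilt with exceptions. Of 21 clusters with at least 100 AMPA subunit UMIs in each library, 18 had a lower Gria1 share in MIP. The other 3 were the oligodendrocyte precursor-like cluster, the smaller astroglia-like cluster (11.7% and 13.3%) and an excitatory neuron-like cluster with Nptx1 and Nxph3 among its top genes (19.2% and 19.6%). Of 59 finer clusters with as many UMIs, 52 had a lower share in MIP and 7 a higher one. Over all nuclei the share was 32.8% in the control and 28.0% in MIP. In the low-depth nuclei, which entered no class, it was 26.1% and 22.8%. With classes from marker scores the share was higher in MIP in differentiating oligodendrocyte-like nuclei (19.3% and 20.4%), and in oligodendrocyte precursor-like nuclei it was lower (11.8% and 10.6%).

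Levels of both genes differed. The Gria2 share was higher in MIP in 10 of 13 classes, with intervals apart in 9, and lower in oligodendrocyte precursor-like, differentiating oligodendrocyte-like and microglia-like nuclei. The level of Gria2 was higher in MIP in 11 of 13 classes, with a log2 ratio of MIP to control from -0.15 to 0.32 and intervals above 0 in 10. In Drd1 spiny-like nuclei it stood at 1647 CPM in the control and 2037 in MIP, and in all 9 finer clusters of that class its ratio was above 0, from 0.15 to 0.42. Gria1 was lower in 11 of 13 classes, but with TMM scaling, which moved log2 ratios up by as much as 0.17, in 7. None of the Gria2 differences reached 1.5-fold, so none counts as past the threshold used below. Gria4 passed it in no class and came closest in excitatory neuron-like nuclei, at 557 and 770 CPM (log2 ratio 0.47, interval 0.43 to 0.51).

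The NMDA pair tilted away from Grin2a, but less evenly. The share of Grin2a among UMIs of Grin2a and Grin2b was lower in MIP in 13 of 13 classes, with intervals apart in 6. It stood at 20.9% and 17.8% in Drd1 spiny-like nuclei, at 24.9% and 23.0% in excitatory neuron-like nuclei and at 37.1% and 31.5% in the Drd3-led cluster. Of 20 clusters 18 had the lower share in MIP, and of 47 finer clusters 37. In low-depth nuclei the share went the other way, at 11.9% and 17.8%, and over all nuclei it was 22.1% and 20.8%. In astroglia-like nuclei it was 10.5% and 7.87%, but 5.81% and 7.71% with nuclei thinned to 2000 UMIs and 5.41% and 5.85% without a finer cluster of 15 control nuclei described below.

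Neuroblast-like nuclei, the young neurons that leave the subventricular zone, had several lower members. Of 29 members with at least 50 UMIs over both libraries, 9 were at least 1.5-fold lower in MIP and 0 higher. Of all 11011 genes with as many UMIs in these nuclei, 10.9% were that much lower and 6.03% higher, and the median log2 ratio was -0.18 for the members and -0.02 for all genes. The lower members were the AMPA subunits Gria1 and Gria3, the kainate subunit Grik3, the NMDA subunits Grin1, Grin2a and Grin2d, and the metabotropic receptors Grm2, Grm4 and Grm8. Gria2, Grik2 and the 6 measured TARPs were not among them, and Cacng5, which was highest in this class, stood at 53.4 and 54.0 CPM.

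Grin2a, the NMDA subunit added as synapses mature, had 994 UMIs, or 195 CPM, in the control and 93 UMIs, or 47.8 CPM, in MIP (log2 ratio -2.03, interval -2.35 to -1.72). Grin2b had 971 and 769 CPM (-0.34, interval -0.42 to -0.25), so the Grin2a share of Grin2a and Grin2b was 16.7% in the control and 5.85% in MIP. Grin1, the obligate NMDA subunit, had 862 UMIs (169 CPM) and 181 (93.0 CPM). Grm2, a presynaptic receptor, had 46 and 4 UMIs. Gria1 had 3630 UMIs (712 CPM) and 720 (370 CPM), a log2 ratio of -0.95 with an interval of -1.06 to -0.83. Grm8, a presynaptic inhibitory receptor, had 575 and 374 CPM.

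Much of this list rested on a small part of the class. A finer cluster led by Cpa6, Pparg and Shisa8 held 111 of 1240 control nuclei, or 8.95%, and 20 of 715 MIP nuclei, or 2.80%. Its nuclei had the neuroblast markers at 3543 CPM in the control, against 7023 to 9855 in the other finer clusters of the class with over 100 control nuclei, and the list of 8 neuronal genes at 5646 CPM against 2712 to 3321. They held 78.2% of the control Grin2a UMIs of the class, 65.2% of those of Grm2, 53.6% of Gria3 and 50.8% of Grin1. Without that finer cluster, Grin2a stood at 50.4 and 41.0 CPM (log2 ratio -0.30, interval -0.70 to 0.08), and its share of Grin2a and Grin2b at 6.01% and 5.24%. Only 3 of 28 members were then at least 1.5-fold lower, beside 9.73% of all genes: Gria1 (529 and 289 CPM, -0.87), Grik3 (382 and 231, -0.72) and Grm4 (16.7 and 8.63, -0.95). Grik4 was then higher (8.13 and 12.9, 0.67), with an interval of -0.14 to 1.46. The Gria1 share stayed lower without it, at 21.8% (21.0 to 22.6) and 11.9% (10.9 to 12.8). Most finer clusters left held nuclei mainly of 1 library, for example 423 control and 12 MIP, or 13 and 457. Library and part of the class were therefore not separated by this.

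Within that finer cluster, levels also differed, but on few MIP nuclei. Grin2a had 777 UMIs in its 111 control nuclei, or 981 CPM, and 17 UMIs in its 20 MIP nuclei, or 185 CPM. Grm8 had 869 and 163 CPM, whereas Gria1 had 1712 and 2009. In the other finer cluster with at least 20 nuclei per library, led by Il1rapl2, Grin2a had 153 and 141 CPM and Grm8 had 1785 and 2121. There the log2 ratio of Gria1 was -0.19, against 0.23 in the Cpa6-led finer cluster. With classes made from marker scores of each nucleus instead of clusters, Grin2a in neuroblast-like nuclei had a log2 ratio of -0.31 and 2 of 29 members were lower, beside 10.7% of all genes in those classes. The Grin2a share of Grin2a and Grin2b was then 12.8% in the control and 10.5% in MIP.

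**Figure D2:**
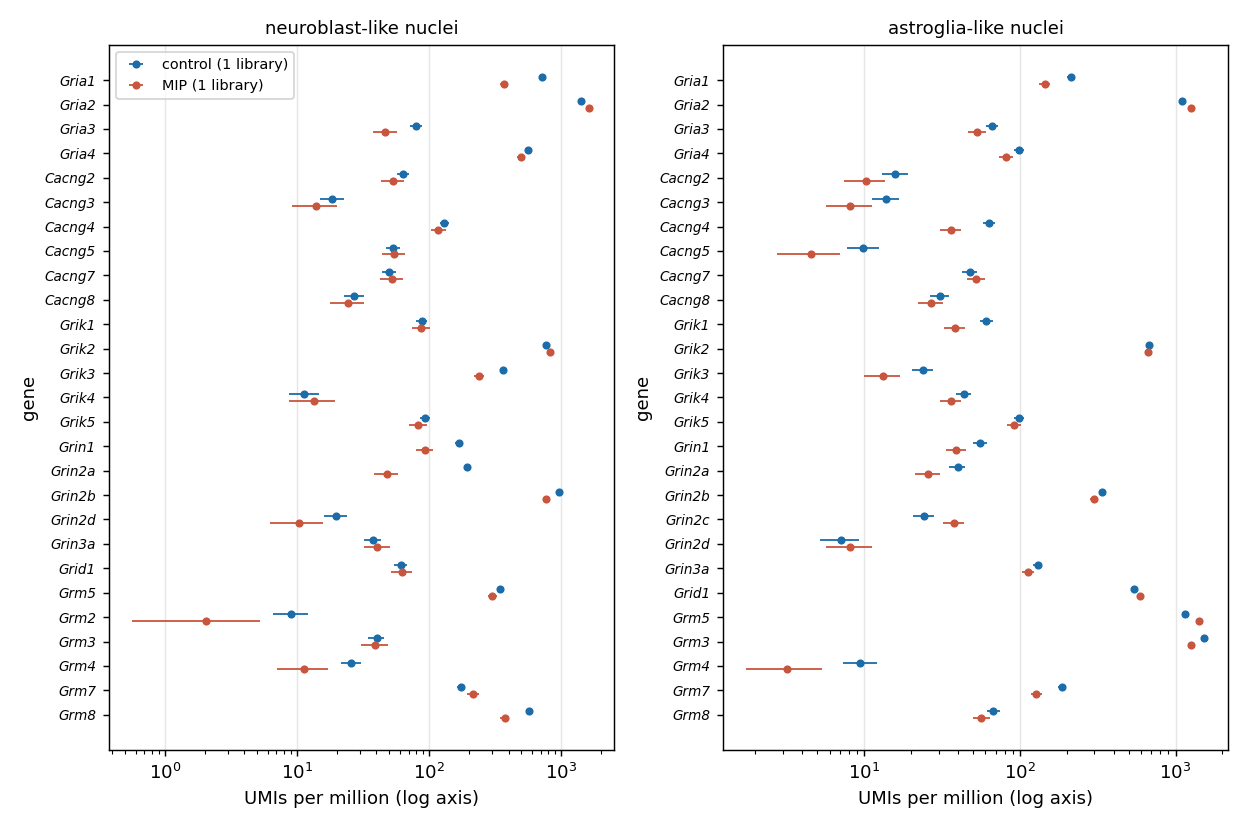
Levels of members with at least 50 UMIs over both libraries in neuroblast-like (left) and astroglia-like nuclei (right), in CPM on a log axis, blue for the control and red for the MIP library, with exact 95% Poisson intervals. The widest gaps among neuroblast-like nuclei are those of Grin2a (195 and 47.8) and Grm2, and among astroglia-like nuclei Grm4 and Cacng5.

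Of the 56 other genes of glutamate signalling that were listed (auxiliary subunits, scaffolds, transporters, editing and coagonist enzymes), 46 were measured in neuroblast-like nuclei. Of these, 2 were higher and 9 lower, beside 6.03% higher and 10.9% lower of all genes. Of the 9, 7 were scaffolds and anchors of the postsynaptic density, the largest group of the list with 21 genes measured. Values without the Cpa6-led finer cluster are not given for these genes. Camk2a, a synaptic kinase, had 336 UMIs (65.9 CPM) in the control and 55 (28.3 CPM) in MIP. Homer2, a scaffold that binds group I metabotropic receptors, had 50.2 and 27.2 CPM. Slc17a7, the vesicular glutamate transporter of cortical neurons, went the other way on few UMIs, 59 and 44 (11.6 and 22.6 CPM). Among the 8 neuronal genes, Rbfox3 was lower in MIP in this class (136 and 67.8 CPM). Snap25 (459 and 391), Syt1 (477 and 424), Pde10a (305 and 253) and Ppp1r1b (76.9 and 57.1) were lower by less. Celf4 (1403 and 1485), Snhg11 (512 and 549) and Rph3a (13.7 and 15.4) stood higher, with intervals that included 0 for Snhg11 and Rph3a. The list as a whole stood at 3382 and 3242. The part of these values in the member differences was not tested beyond the finer clusters.

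In astroglia-like nuclei, Grm3, Grm5 and Gria2 were abundant in both libraries, and several members at low levels were lower in MIP. Grm3 was highest in this class, at 1530 CPM in the control and 1258 in MIP (log2 ratio -0.28, interval -0.33 to -0.24). Grm5 stood at 1145 and 1418 (0.31, interval 0.26 to 0.36) and Gria2 at 1101 and 1267. Of 29 members measured, 9 were at least 1.5-fold lower and 1 higher, beside 11.6% lower and 4.06% higher of 12776 genes, with a median of -0.27 for members and -0.10 for all genes. The 9 included the TARPs Cacng2, Cacng3, Cacng4 and Cacng5, the kainate subunits Grik1 and Grik3, the NMDA subunit Grin2a and the metabotropic receptor Grm4. Grm4 had 67 (9.45 CPM) and 14 (3.17 CPM). Cacng4 had 63.4 and 36.0 CPM and Cacng5 9.87 and 4.53.

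RNA of neuronal genes was present in astroglia-like nuclei, and most neuronal lists, though not all, were lower there in MIP. The 8 neuronal genes together stood at 1278 CPM in the control, 15.0% of their level in spiny-like nuclei, and at 1043 CPM in MIP, and single genes of the list at 12.1% to 53.4% and 7.76% to 38.4%. Cacng5 was the only one of the 9 lower members that lay above the highest of those percentages in both libraries. Grm3 (296% and 270% of its spiny-like level) and Gria2 (67.6% and 62.8%) also lay above it. Grm5 (33.9% and 38.3%) did not. The comparison is with spiny-like nuclei only. Cacng5 was highest in neuroblast-like nuclei (53.4 and 54.0 CPM), and RNA from those is not covered by it. The part of RNA from other nuclei was not tested. A finer cluster of 15 control and 5 MIP nuclei, with means of 28992 and 23760 UMIs, had the neuronal list at 7342 and 6919 CPM and held 63.8% of control Grin2a UMIs of the class and 40.3% of those of Grm4. Without it 6 members were lower (Cacng4, Cacng5, Grik1, Grik3 and Grm4 among them), beside 11.3% of all genes, and Grin2a stood at 15.3 and 16.8 CPM. All 18 spiny projection neuron markers and all 11 neuroblast markers had ratios below 0 in this class, while the excitatory neuron markers stood higher in MIP (1210 and 1422 CPM) and the 12 astroglia markers together stood at 9394 and 9426 CPM. With likely doublets kept 4 members were lower, beside 11.6% of all genes, and with each nucleus thinned to 2000 UMIs 4 were, beside 10.5%.

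Grin2c, the NMDA subunit that astrocytes carry, was the higher member in astroglia-like nuclei. It had 171 UMIs (24.1 CPM) in the control and 166 (37.6 CPM) in MIP, a log2 ratio of 0.64 with an interval of 0.32 to 0.96. In the larger of the 2 astroglia-like clusters it stood at 21.4 and 42.3 CPM and in the smaller at 30.6 and 22.7. A finer cluster of 6 control and 459 MIP nuclei, led by Y-linked genes and Fkbp5, held 114 of the 166 MIP UMIs. Without it Grin2c stood at 24.1 and 20.7 CPM, and the ratio was -0.22 with an interval of -0.69 to 0.24. Leaving it out took 42.2% of the MIP and 0.501% of the control nuclei of the class. The nuclei left were therefore not matched between libraries, and the ratio without it cannot show where the difference lay. Among the other glutamate genes, 48 were measured, 3 were higher and 7 lower, beside 4.06% and 11.6% of all genes. Slc1a3, the glial glutamate transporter, had 2333 and 3810 CPM (log2 ratio 0.71). Cnih3, an AMPA auxiliary subunit, had 23.7 and 10.6 (-1.15), Neto1, a kainate auxiliary subunit, 79.5 and 47.1 (-0.76), and Slc17a7 6.63 and 11.6 (0.80).

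Cycling progenitor-like nuclei held 405 control and 210 MIP nuclei. Of 24 members measured, 5 were lower and 0 higher, beside 10.5% lower and 5.97% higher of 9080 genes, with medians of -0.13 and -0.01. The lower members were Gria1, Grik1, Grin3a, Grm3 and Grm8. Of these only Grin3a, at 225% and 80.3% of its spiny-like level, lay above all 8 neuronal genes in both libraries. The highest of those genes stood at 76.3% and 69.6%. Gria1 (8.72% and 5.62%), Grik1 (55.7% and 31.5%), Grm3 (47.9% and 12.2%) and Grm8 (62.9% and 19.1%) did not. The part of RNA from other nuclei was not tested. Grm3 had 534 UMIs (248 CPM) in the control and 45 (56.7 CPM) in MIP, a log2 ratio of -2.13 with an interval of -2.60 to -1.69. A finer cluster of 48 control and 15 MIP nuclei with Tnc and Aldh1l1 among its top genes held 72.7% of the control Grm3 UMIs, and without it Grm3 stood at 80.4 and 55.6 CPM (-0.53, interval -1.07 to -0.02). Grin3a, an NMDA subunit that lowers calcium entry, had 108 and 47.9 CPM and without that finer cluster 99.7 and 51.5. Grm8 had 128 and 18 UMIs, and another finer cluster, of 72 control and 48 MIP nuclei, held 55.5% of the control ones. Without that other cluster the ratio of Grm8 was -0.40 with an interval of -1.32 to 0.44. Without the Tnc-led finer cluster 2 of 23 members were lower, Grin3a and Grm8, beside 10.7% of all genes, and Grid1 was higher (0.61). With classes from marker scores, Gria1 and Grik1 turned above 0 (0.04 and 0.17) and 2 members were lower, beside 13.8% of all genes.

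**Figure D3:**
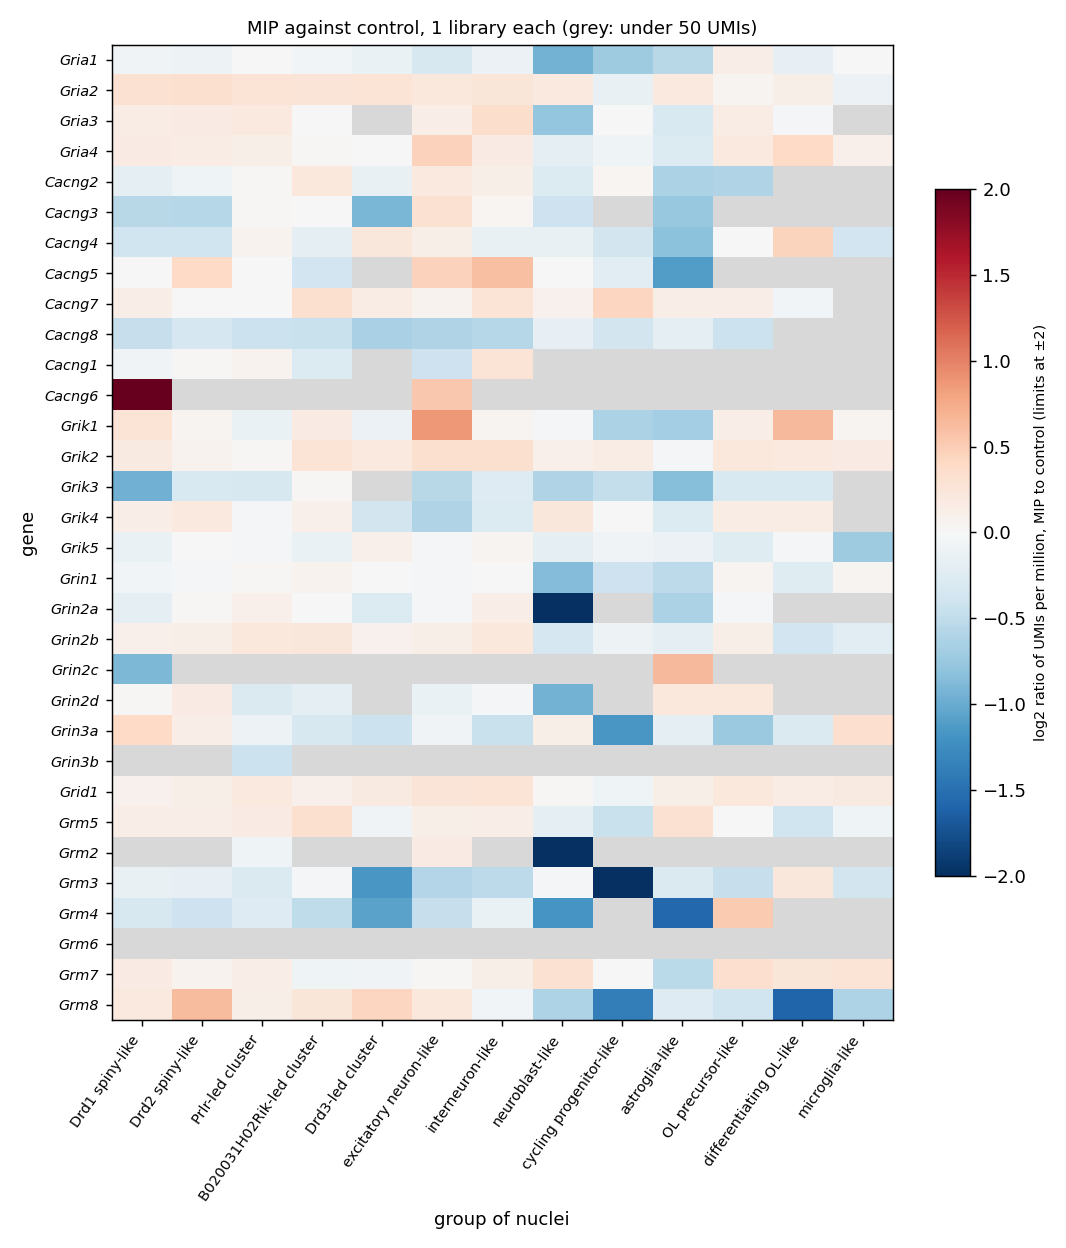
Log2 ratios of MIP to control levels for members (rows) in each group of nuclei (columns), red where higher in MIP and blue where lower, with grey where fewer than 50 UMIs were counted over both libraries and colours limited at 2 either way. The Gria2 row is red in 11 of 13 columns and the Cacng8 row is blue in all 11 measured, and the darkest blue cells are Grin2a and Grm2 in neuroblast-like and Grm3 in cycling progenitor-like nuclei.

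In spiny-like nuclei almost all members lay close to equality. Of 31 members measured in the Drd1 type, 1 was higher and 2 lower, beside 2.42% and 11.9% of 14913 genes. Of 29 in the Drd2 type, 1 was higher and 0 lower, beside 2.54% and 12.8% of 13708 genes. The medians were -0.00 and 0.03 for members and -0.11 in both for all genes. Grm5, the main postsynaptic metabotropic receptor of these neurons, was highest in the Drd2 type at 3516 and 3843 CPM, and Grik2 highest in the Drd1 type at 2816 and 3186. Grin1 was also highest in the Drd1 type, at 345 and 334, though its interval overlapped that of the Drd2 type in MIP. Grm7 stood at 2054 and 2161 in the Drd2 type.

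The members past 1.5-fold in spiny-like nuclei were low there. Grik3 in the Drd1 type had 627 UMIs (26.6 CPM) in the control and 217 (13.6 CPM) in MIP, a log2 ratio of -0.97 with an interval of -1.20 to -0.74, and it was below 0 in all 9 finer clusters. Cacng6 in the Drd1 type had 11 UMIs (0.467 CPM) and 47 (2.95 CPM), 2.66 with an interval of 1.69 to 3.75. Cacng6 had too few UMIs elsewhere to be counted except in excitatory neuron-like nuclei, but over all nuclei it had 75 and 169 UMIs, a log2 ratio of 1.63 with an interval of 1.23 to 2.04. It lies at chr7:3424195-3435667 in mm10, downstream of Cacng8 (chr7:3390683-3415648) on the same strand. Grin2c in the Drd1 type had 44 and 16 UMIs (-0.90). A finer cluster of 541 control and 60 MIP nuclei held 22 of the 44, and without it the ratio was -0.36 with an interval of -1.39 to 0.63. Grm8 in the Drd2 type had 983 UMIs (69.2 CPM) and 1096 (108 CPM), 0.64 with an interval of 0.51 to 0.76. A finer cluster led by Nrp2 and Otof, with 162 control and 302 MIP nuclei, held 76.9% of the MIP UMIs of Grm8, and without it the ratio was -0.38.

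Excitatory neuron-like nuclei held the highest levels of Grin2a (672 and 656 CPM), Grin2b (2025 and 2194) and Gria3. Of 31 members measured, 1 was higher and 3 lower, beside 2.75% and 15.0% of 14883 genes, with medians of 0.12 and -0.14. Grik1, a kainate subunit, had 2996 UMIs (178 CPM) in the control and 6188 (324 CPM) in MIP, a log2 ratio of 0.87 with an interval of 0.80 to 0.93. The 3 clusters of the class did not all share this: the ratio was 0.88 in the cluster led by Tfap2d, 0.81 in that led by Nr4a2 and Vegfd, and -0.67 in that with Nptx1 and Nxph3. It was above 0 in 5 of 8 finer clusters, from -1.30 to 1.06, and 0.24 when these were weighted equally.

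The lower members in excitatory neuron-like nuclei were Cacng8, Grik4 and Grm3. Cacng8, a TARP of hippocampal and forebrain receptors, had 62.4 and 40.9 CPM (log2 ratio -0.61, interval -0.74 to -0.47) and was below 0 in all 8 finer clusters, from -0.95 to -0.36. Grik4, a high-affinity kainate subunit, had 132 and 86.6 CPM, but its ratio was -1.39 in the Tfap2d-led cluster and 0.41 in that with Nptx1 and Nxph3, and 0.02 with finer clusters weighted equally. Grm3 had 230 and 153 CPM (-0.59, interval -0.66 to -0.52), and in 2 of 8 finer clusters it was above 0. Grik3 came just short of the threshold at 241 and 164 CPM (-0.55).

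Interneuron-like nuclei held the highest levels of Gria1, Gria4, Grik1 and Cacng2, the TARP known as stargazin. Grik1 stood at 1216 and 1268 CPM and Cacng2 at 94.9 and 103. For Grik1 the Drd3-led cluster, at 1211 CPM, could not be told apart from this class in the control. Of 29 members measured, 1 was higher and 0 lower, beside 2.57% and 12.9% of 11831 genes, with medians of 0.06 and -0.10. That member was Cacng5, with 41 and 53 UMIs and a ratio of 0.59 whose interval of -0.02 to 1.22 included 0. Grm3 (256 and 177 CPM, -0.53) and Grin3a (380 and 278, -0.45) were lower by less than the threshold with intervals below 0.

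The clusters without a class name differed little, apart from the Drd3-led cluster. In the Prlr-led cluster 31 members were measured and 0 were past 1.5-fold either way, beside 1.70% higher and 15.6% lower of 15127 genes, with medians of 0.02 and -0.16. In the B020031H02Rik-led cluster 29 were measured and 0 were past it, beside 2.97% and 11.0% of 11287 genes, with medians of 0.02 and -0.07. The latter held the highest level of Grm8, at 1439 and 1700 CPM, and of Grm4, a presynaptic receptor, at 67.1 and 47.1. For Grm4 the Drd3-led cluster overlapped it in the control, at 62.2 CPM. In the Drd3-led cluster, with 251 control and 126 MIP nuclei, 4 of 24 members were lower and 0 higher, beside 11.5% and 6.78% of 6624 genes, with medians of -0.04 and 0.00. Cacng3, a TARP, was highest in this cluster, with 605 UMIs (400.1 CPM) in the control and 136 (213 CPM) in MIP, a log2 ratio of -0.91 with an interval of -1.19 to -0.64. Grm4 had 94 and 19 UMIs, Grm3 had 58 and 11, and Cacng8 had 48 and 13, the last with an interval that included 0. Gria2 and Grin3a (444 and 328 CPM) were also highest in this cluster in both libraries. For Grin3a the next class overlapped it, oligodendrocyte precursor-like nuclei in the control (398 CPM) and interneuron-like nuclei in MIP (278 CPM).

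Oligodendrocyte precursor-like nuclei had their own set of abundant members. Cacng4 stood at 432 CPM in the control and 429 in MIP, and Grik4 at 331 and 366. Of 26 members measured, 2 were lower and 0 higher, beside 1330 genes lower, 12%, and 3.27% higher of 11108, with medians of 0.08 and -0.09. Grin3a had 1548 UMIs (398 CPM) and 691 (238 CPM), a log2 ratio of -0.74 with an interval of -0.87 to -0.61. A finer cluster of 316 control and 10 MIP nuclei held 48.0% of its control UMIs, and without it the ratio was -0.77. It ranged from -0.61 to -0.85 in the 2 finer clusters with at least 20 nuclei in each library, and from -0.64 to -0.79 over the alternatives run for it. The other lower member was Cacng2, with 51 and 25 UMIs and an interval of -1.36 to 0.11. Nptx2, a secreted pentraxin that gathers AMPA receptors, had 54 and 93 UMIs (13.9 and 32.1 CPM).

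Differentiating oligodendrocyte-like nuclei, 207 control and 125 MIP, held the highest levels of Grid1 (1046 and 1164 CPM) and Grik3 (406 and 328). For Grik3 the next class, neuroblast-like nuclei at 363 CPM, could not be told apart from it in the control. Of 21 members measured, 1 was higher and 1 lower, beside 7.11% and 12.1% of 6852 genes, with medians of -0.02 and -0.05. Grik1 had 97 and 70 UMIs (65.4 and 102 CPM, log2 ratio 0.64, interval 0.18 to 1.10), and Grm8 had 105 and 16 UMIs (70.8 and 23.3 CPM, -1.60, interval -2.46 to -0.84). With classes from marker scores the ratio of Grm8 was 0.08.

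Microglia-like nuclei held few receptor UMIs, 1465 in the control and 1336 in MIP over all 34 genes. Of 16 members measured, 2 were lower and 0 higher, beside 16.4% and 12.2% of 7358 genes, with a median of -0.04 for both. These were Grik5, with 46 and 27 UMIs, and Grm8, with 35 and 22 and an interval that included 0. Of these 16, 0 lay above the range of the 8 neuronal genes in both libraries at once, which together stood at 13.3% and 10.3% of their spiny-like level. Grin3a, at 67.8% of its spiny-like level in MIP, lay above that range in MIP alone. The part of RNA from other nuclei in these UMIs was not tested. The astroglia markers in these nuclei stood at 444 and 184 CPM and the neuroblast markers at 773 and 475, and 0 of the 7 neuroblast markers with at least 50 UMIs had a ratio above 0.

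**Figure D4:**
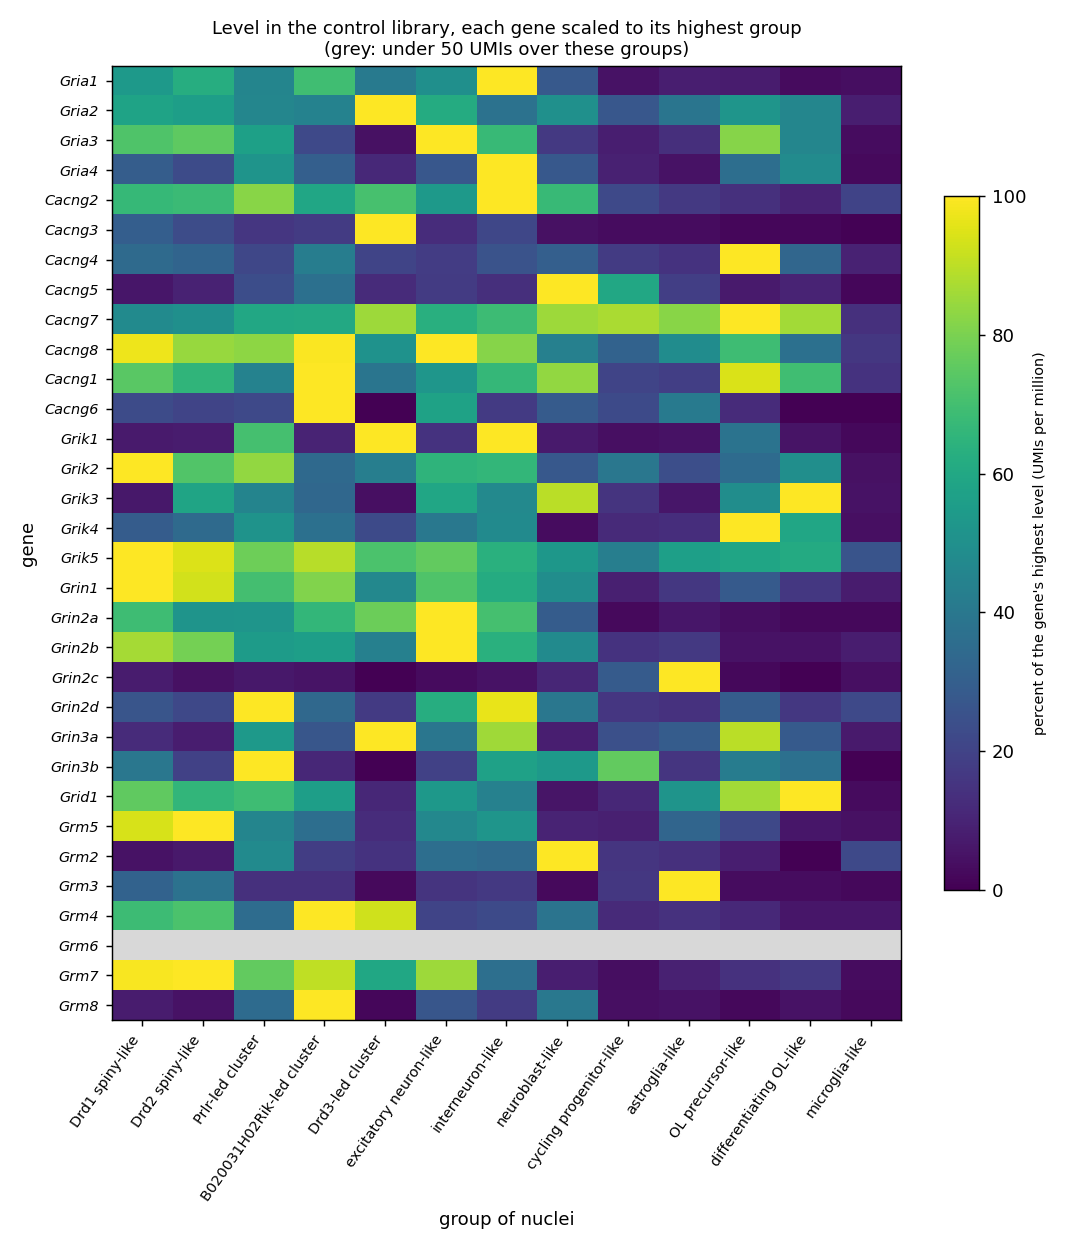
Level of members (rows) in each group of nuclei (columns) of the control library, as a percent of the gene's own highest level in CPM, from dark (0) to yellow (100), with grey rows where the gene had under 50 UMIs over these groups. Grm3 and Grin2c peak in astroglia-like, Cacng4 and Grik4 in oligodendrocyte precursor-like, Cacng5 and Grm2 in neuroblast-like nuclei, and the Gria rows peak in interneuron-like, excitatory neuron-like or Drd3-led nuclei.

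Across classes, 24 of the 34 genes were highest in the same class in both libraries. Other members were highest, in the control, in these classes. Cacng7 stood at 58.0 CPM in oligodendrocyte precursor-like nuclei and Grik5, a high-affinity kainate subunit, at 176 CPM in Drd1 spiny-like nuclei, each overlapping the next class. Grin2d stood at 50.1 and Grin3b at 1.83 CPM in the Prlr-led cluster, and Cacng1 at 6.79 CPM in the B020031H02Rik-led cluster. These also overlapped the next class. Some genes kept 1 direction over nearly all classes in which they were measured. The share of all genes that did so was not counted, and the median log2 ratio of all genes ran from -0.16 to 0.00 over the classes. Cacng8 was below 0 in 11 of 11, from -0.64 to -0.17, with intervals below 0 in 7, and TMM scaling left all 11 below 0. Grik3 was below 0 in 10 of 11, with intervals below 0 in 9, and Grm3 in 12 of 13, with 9. Grm4 was below 0 in 9 of 10, with 8. Grik2, the most widespread kainate subunit, was above 0 in 12 of 13 classes, from -0.02 to 0.33, and Grid1 in 12 of 13, from -0.08 to 0.28. With TMM scaling the counts below 0 were 10 for Grik3, 11 for Grm3 and 9 for Grm4, and those above 0 were 13 for Grik2 and 12 for Grid1. Among the other glutamate genes, Srr, which makes the NMDA coagonist D-serine, was lower in MIP in Drd1 spiny-like (79.5 and 46.7 CPM), Drd2 spiny-like (84.2 and 51.8), excitatory neuron-like (62.1 and 33.0) and interneuron-like nuclei (68.4 and 30.7). It was also lower in differentiating oligodendrocyte-like nuclei and in the Prlr-led and B020031H02Rik-led clusters. Over the 13 classes the other glutamate genes past 1.5-fold numbered 0 to 3 higher and 1 to 9 lower of 25 to 54 measured. Of all genes, 1.70% to 12.2% were that much higher and 10.5% to 16.4% lower. The libraries are shared by all these classes, so agreement between classes is not independent evidence.

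Of these other genes, those with the largest ratios whose interval excluded 0 were mostly lower in MIP. In excitatory neuron-like nuclei they were Slc17a8, a vesicular glutamate transporter (log2 ratio -1.21), Cbln2, which bridges neurexins to delta receptors (-0.91), and Srr (-0.91). In the Prlr-led cluster they were Cbln1 (-2.13), Slc17a8 (-1.18) and Srr (-0.98), and in Drd1 spiny-like nuclei Srr and Cbln4 (-0.77 each) and Homer2 (-0.59). In interneuron-like nuclei Shisa7, an AMPA auxiliary subunit (-0.64), and Slc1a3 (-0.62) joined Srr. In the same nuclei the astroglia markers Aqp4 (31 and 5 UMIs) and Gfap (14 and 3) were also lower, while Slc1a2 stood at 61.3 and 60.2 CPM. The part of RNA from other nuclei in the Slc1a3 value was not tested. The Drd3-led cluster had Neto1 (-0.91) and the transporter Slc1a2 (-0.72) lower and the neuronal transporter Slc1a1 (0.71) higher, and the B020031H02Rik-led cluster had Slc17a7 higher (1.23). In glial classes, differentiating oligodendrocyte-like nuclei had Slc1a2 (-1.12), Slc1a3 (-0.91) and the glutamine transporter Slc38a1 (-0.89) lower. There Slc1a2 had 61 and 13 UMIs, Slc1a3 had 85 and 21, and the astroglia marker Aqp4 had 14 and 2, with an interval that included 0. The part of RNA from other nuclei in these values was not tested. In cycling progenitor-like nuclei 3 were past 1.5-fold higher and 2 lower, beside 5.97% and 10.5% of all genes. Of these only Slc38a1 (0.78) had an interval that excluded 0, while Slc1a3 (0.43) and Nrxn2 (0.38) were higher by less. In microglia-like nuclei Adarb2 (-1.40), Nrxn3 (-1.38) and Grip1 (-1.15) were lower, beside the lower neuronal and astroglia lists given above.

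The members are long genes, with a median of 156 kb against 17.3 kb for protein-coding genes, and 19 of 34 exceed 100 kb. In nuclear RNA such genes can gather many UMIs from introns. Genes over 100 kb had a median log2 ratio of -0.01 in neuroblast-like and -0.09 in astroglia-like nuclei, and 14.3% and 12.7% of them were at least 1.5-fold lower in MIP.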

How the data were processed

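Nuclei from 1 control and 1 MIP subventricular zone library were analysed. The authors deposited unnormalized UMI counts for each gene in each barcode. Cell Ranger 5.0.1 and build mm10 are named in the submitters' processing notes. Whether intronic reads were counted is not given in the sources used here. The members and the gene lists were chosen with earlier results of these data known.

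Barcodes with under 500 genes (0 control, 204 MIP) or over 5% mitochondrial UMIs (114 and 48) were left out. Scrublet (Scanpy 1.11.5) marked 0 doublets on its own threshold, so the top 0.8% per 1000 barcodes were removed, 2271 and 1174. The kept nuclei were 85.9% and 88.5% of barcodes. Log counts per 10000, 3000 variable genes, 40 principal components, 20 neighbours and Leiden resolution 1.5 (leidenalg 0.10.2) gave 34 clusters. The variable genes excluded the members, Xist, Tsix, Ddx3y, Uty, Kdm5d and Eif2s3y, and mitochondrial, ribosomal protein and haemoglobin genes. Other X- or Y-linked genes were not excluded. Clusters were named where at least 3 fixed markers were among the top 60 genes. Some of these stayed unnamed, such as the B020031H02Rik-led cluster, with no marker among the top 10 and under 3 at 3 times the rest. Others had more markers of another class. Finer clusters used 15 neighbours and resolution 1 within a class and were added after the data were seen.

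UMIs were summed per class and library and scaled to 1000000 UMIs (CPM). Ratios have exact conditional Poisson intervals and shares exact binomial (Clopper-Pearson) ones, both covering counting error only. The ratio intervals were run on simulated Poisson counts, the setting they assume. That run cannot speak to spread between nuclei or animals. A member was counted in a class with at least 50 UMIs over both libraries, and called at a ratio of 1.5. Given with values are members past that fold whose interval excludes equality, each member's highest class, and the 3 other glutamate genes with the largest ratios in a class. Names outside that rule were chosen after their values were seen. Alternatives were TMM scaling (edgeR 4.0.16, used for scaling factors only), no doublet removal, classes from marker scores, thinning to 2000 UMIs, equal cluster weights, at least 1000 genes, minimums of 20 and 100 UMIs, and a fold of 2. Protein sequences were not used here. Values of a few genes are not reported here, though counts and medians include them. Gene positions are from GENCODE M21, where 34 of 34 members matched by identifier.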

Additional observations from a re-analysis of the deposited data

Results flagged for a closer look

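Values in this paragraph are log2 ratios of MIP to control, and each gene is given because it passed 1.5-fold in opposite directions in different classes. The differences between classes were not tested. Grik1 stood at 0.87 in excitatory neuron-like and 0.64 in differentiating oligodendrocyte-like nuclei, but lower in cycling progenitor-like nuclei, at -0.63, and astroglia-like nuclei, at -0.68. Grin2c stood at 0.64 in astroglia-like and -0.90 in Drd1 spiny-like nuclei, but at -0.22 and -0.36, with intervals that included 0, without the finer cluster that held the most of its UMIs in each. Those 2 finer clusters held very unequal parts of the libraries, so the nuclei left were not matched between them. Grm8 stood at 0.64 in Drd2 spiny-like nuclei and at -0.62 in neuroblast-like, -1.39 in cycling progenitor-like and -1.60 in differentiating oligodendrocyte-like nuclei. Without the finer cluster that held the most of its UMIs, Grm8 stood at -0.38 in Drd2 spiny-like and -0.40 in cycling progenitor-like nuclei.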

How the results depend on the processing

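No paired analysis was possible because each group is 1 library. Counts of lower members in 3 classes depended on the processing, and the percent of all genes lower under the same setting follows each count. In astroglia-like nuclei 9 members were lower (11.6%), against 4 with likely doublets kept (11.6%), 4 with nuclei thinned to 2000 UMIs (10.5%) and 3 at a fold of 2 (2.50%). In cycling progenitor-like nuclei 5 were lower (10.5%), against 10 with doublets kept (11.6%), 2 with classes from marker scores (13.8%), 3 with finer clusters weighted equally (11.2%), 3 at a fold of 2 (2.58%) and 2 without a finer cluster (10.7%). In neuroblast-like nuclei 9 were lower (10.9%), against 2 with marker scores (10.7%), 4 thinned (11.6%), 3 at a fold of 2 (3.33%) and 3 without a finer cluster (9.73%). The cause was not tested.

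Under the settings applied to whole classes, 7 log2 ratios of members changed sign. With classes from marker scores these were Gria1 (0.040) and Grik1 (0.17) in cycling progenitor-like, Grm8 (0.084) in differentiating oligodendrocyte-like, and Gria3 (0.068) and Grm8 (0.026) in neuroblast-like nuclei. Thinning gave Grin2a in astroglia-like nuclei 0.26, and equal weights of finer clusters gave Grik4 in excitatory neuron-like nuclei 0.021. Of the others, 173 stayed within their counting interval and 42 did not. Leaving out the finer cluster with the most of a member's UMIs changed the sign of 4 of 39 ratios, brought 17 under 1.5-fold and left 12 with an interval that included 0. That finer cluster was picked by the member's own UMIs, and some held nuclei almost wholly of 1 library. These counts therefore cannot show that a difference rests on 1 part of a class. The cause was not tested.

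Of 147 recomputed shares 13 had the opposite direction, 6 of Gria1, 3 of Gria2 and 4 of Grin2a, in astroglia-like, interneuron-like, microglia-like and both oligodendrocyte-lineage classes. Judged by the width of the counting intervals, 101 of the 147 differences between libraries held and 45 moved further. With doublets kept, the Gria2 share in oligodendrocyte precursor-like nuclei was 0.0394 percentage points higher in MIP. Members under 50 UMIs in a class were too shallow to compare. Finer clusters were added after the data were seen.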
